A study of Rattus norvegicus with 6 samples.

Results

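The microRNA genes described here are the array features whose only annotated symbol is Mir with a number below 400, with any letter or copy suffix, or starts with Mirlet7. Mir126a and Mir126b were left out. The rule uses names alone and no measured value. It found 214 genes among the 18166 genes measured, each read by 1 feature, and all 214 are typed as microRNA genes in the RefSeq gene table. The numbering follows the order in which microRNAs were named, so these are mostly long-known and conserved families. Just inside the limit, Mir384 had a mean log2 signal of 2.43 in control and 2.45 in induced cells, and just outside it Mir409 had 5.18 and 5.17.

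The cells were adipose-derived stem cells (ADSCs), the stromal precursors of fat tissue that can become adipocytes, grown from inguinal fat of female Wistar rats aged 2 weeks. In the 3 control cultures the cells grew in α-MEM with 10% fetal bovine serum. The 3 induced cultures were kept for 7 days in α-MEM with 20% serum, 0.5 mM 3-isobutyl-1-methylxanthine (an inhibitor of cAMP breakdown), 1 µM dexamethasone (a synthetic glucocorticoid) and 5 µg/ml insulin. The groups therefore differ in serum as well as in the inducers, and their effects cannot be told apart. The labels call the arrays biological replicates without saying whether the cells came from separate animals, so p-values measure the spread between these cultures.

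A microRNA is cut from a hairpin in a longer transcript, first by Drosha with Dgcr8 in the nucleus and then by Dicer in the cytoplasm. The short strand that remains guides an Argonaute protein to messenger RNAs, mainly through its seed, bases 2 to 8, and lowers their output. Many microRNA genes lie in introns of other genes or in shared primary transcripts with neighbouring microRNA genes. In fat tissue, some microRNAs are known to restrain and others to promote the passage from precursor to adipocyte. The label protocol gives total RNA as the starting material, and whether a feature read the primary transcript, the hairpin or the mature strand was not tested. Values below are log2 signals of a gene, not amounts of mature microRNA.

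The sequences below belong to some of the genes with larger differences and to the families they are compared with. They are RefSeq mature strands (assembly GRCr8), written 5′ to 3′ with the seed in capitals. The first set shows the strands of the genes with the lowest estimates in induced cells and their neighbours.
miR-31a-5p: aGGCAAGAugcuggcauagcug
miR-199a-5p: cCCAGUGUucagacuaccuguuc
miR-214-3p: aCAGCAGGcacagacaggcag
miR-145-5p: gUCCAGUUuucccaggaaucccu
miR-143-3p: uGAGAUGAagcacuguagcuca
miR-27b-3p: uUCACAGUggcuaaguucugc
miR-23b-3p: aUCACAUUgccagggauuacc
miR-24-3p: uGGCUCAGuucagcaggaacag
miR-362-3p: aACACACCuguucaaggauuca

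The second set shows strands of genes with higher estimates in induced cells, Mir193, Mir365b, Mir224, Mir29b2 and Mir301b, together with relatives that share a seed. The miR-29 strands share 1 seed, and miR-29a-3p comes from a gene with an estimate below 0. The strands miR-301b-3p and miR-130b-3p share another.
miR-193a-3p: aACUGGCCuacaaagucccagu
miR-365-3p: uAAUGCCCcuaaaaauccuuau
miR-224-5p: cAAGUCACuagugguuccguuu
miR-29b-3p: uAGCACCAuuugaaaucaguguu
miR-29c-3p: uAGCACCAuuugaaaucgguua
miR-29a-3p: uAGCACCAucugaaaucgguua
miR-301b-3p: cAGUGCAAugguauugucaaagc
miR-130b-3p: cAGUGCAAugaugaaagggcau

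The third set shows let-7 strands and miR-98, which have the same seed. The estimate of Mir98 lay below 0. The genes that give let-7a-5p lay above 0, and those that give let-7f-5p lay on both sides. Counted from the 5′ end of let-7a-5p, miR-98-5p differs by G11A and A19U.
let-7a-5p: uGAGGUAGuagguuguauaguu
let-7f-5p: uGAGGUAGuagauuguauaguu
miR-98-5p: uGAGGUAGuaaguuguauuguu

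The adipocyte marker genes separated the arrays by label, with spread inside each group. The mean log2 signal of 5 adipocyte markers (Adipoq, Cidec, Fabp4, Plin1, Pparg) was 6.81 to 8.75 on the control arrays and 11.21 to 12.38 on the induced arrays, and 2 of the 5 passed the test. The 4 measured stromal markers had means of 11.65 to 11.87 and 10.20 to 11.21, and 0 of the 4 passed the test. Control array 1 held the adipocyte mean of 8.75, against 6.85 and 6.81 on control arrays 2 and 3. Induced array 3 had both the highest adipocyte mean (12.38) and the lowest stromal mean (10.20). The 5 macrophage and leukocyte markers had means of 4.92 to 6.14 in control and 5.87 to 6.87 in induced cells, and 0 of the 5 passed the test. The means of the 3 measured endothelial markers were 4.85 to 5.32 and 4.83 to 4.88, those of 5 skeletal muscle markers 6.21 to 6.56 and 6.04 to 6.17, those of 4 mural markers 7.24 to 7.43 and 6.98 to 7.38, and those of 4 epithelial markers 4.46 to 4.52 and 4.40 to 4.60. Fewer cells of a type and less RNA per cell cannot be told apart in such bulk samples. The part of these shifts in the microRNA results was not tested. Induced arrays 1 and 3 had the lowest correlation within a group (r = 0.9681 over features). Induced arrays 1 and 2 each correlated better with a control array (highest r 0.9793 and 0.9816) than with at least 1 induced array (lowest r 0.9681 and 0.9687). On induced array 3, 5 of the 214 microRNA genes, Mir21, Mir29a, Mir92a1, Mir125b1 and Mir344b-1, lay at least 1 log2 unit below the mean of the other induced arrays. On the other arrays 2 or 3 microRNA genes lay that far from their group.

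The microRNA genes were low on these arrays and differed little between the groups. Their mean log2 signal over the 6 arrays had a median of 4.48, against 6.46 for all genes, and 126 of the 214 lay below the lower quartile of all genes (4.97). Only Mir21 and Mir185 lay above the upper quartile. The median difference of induced minus control was 0.02 (log2) for the microRNA genes and -0.01 for all genes. The median size of the difference was 0.13 and 0.17, and 139 microRNA genes lay within 0.2 of 0.

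With limma's test and Benjamini-Hochberg adjustment over all 18166 genes, 0 of the 214 microRNA genes passed an adjusted p of 0.05, against 0.749% of all genes. The smallest adjusted p was 0.067. At an unadjusted p under 0.05 there were 22 microRNA genes (10.3%), against 17.6% of all genes. Of these, 12 were higher in induced cells (5.61%, against 8.13% of all genes) and 10 lower (4.67%, against 9.51%). The count of higher genes was 5 without control array 2 and 6 without induced array 1, and that of lower genes was 6 without control array 3 and 6 without induced array 2. In either direction and in the same order, the shares of the microRNA genes were 6.07%, 7.01%, 8.88% and 7.94%. Those of all genes were 11.7%, 15.8%, 12% and 16.9%. Without induced array 3, 2 genes passed the adjusted threshold, Mir193 and Mir224, beside 3.07% of all genes. The 3 control and 3 induced values did not overlap for 27 microRNA genes (12.6%), against 25.4% of all genes. These were 17 with higher induced values (7.94%, against 12.0%) and 10 with lower ones (4.67%, against 13.4%). A difference of 1.5-fold or more was measured for 10 microRNA genes (4.67%, against 13.3%), 4 higher (1.87%, against 6.69%) and 6 lower (2.80%, against 6.61%). One of 2-fold or more was measured for Mir31 alone (0.467%, against 4.98%), in the lower direction (2.17% of all genes), while 0 were that much higher (2.81% of all genes). Estimates lay above 0 for 117 microRNA genes (54.7%), against 47.6% of all genes. With 3 arrays in each group the smallest p of an exact permutation test is 0.1, above the threshold, and single genes carry no such p here. The plot of level against difference places the microRNA genes in the narrow left part of the cloud of all genes.

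**Figure D1:**
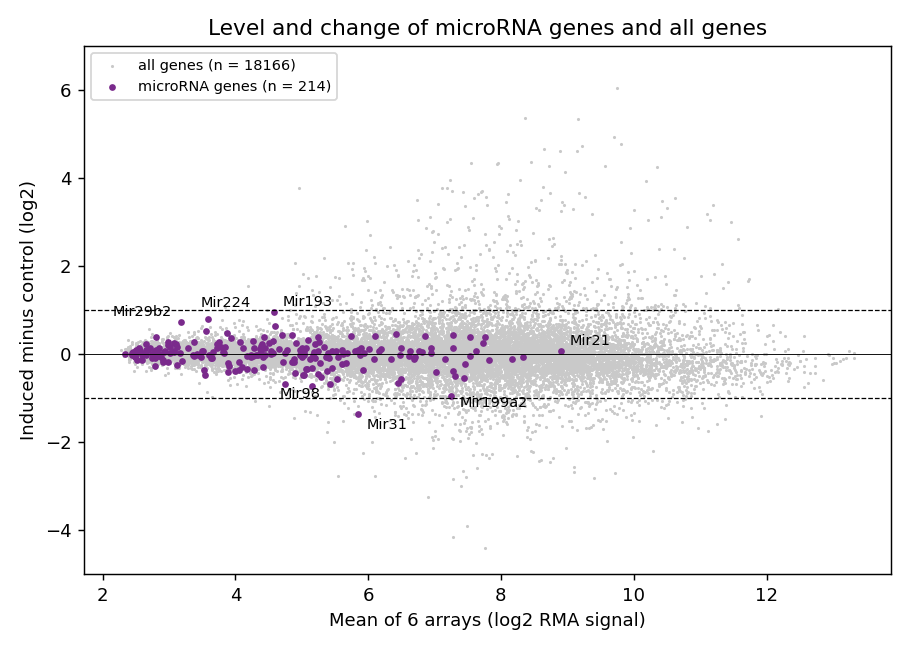
Mean log2 RMA signal over 6 arrays (horizontal axis) against induced minus control (log2, vertical axis) for all 18166 genes in grey and the 214 microRNA genes in purple; dashed lines mark 2-fold. Mir31 at -1.37 is the only microRNA gene beyond a dashed line, and Mir21 has the highest level at 8.90.

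Mir31 had the largest difference of all the microRNA genes. Its strand, miR-31, is known to restrain fat cell formation in stromal cells and targets the adipogenic factor Cebpa. The control arrays gave 6.48, 5.98 and 7.10 and the induced arrays 4.90, 5.45 and 5.10. Every induced value lay below every control value. The difference was -1.37 (SE 0.30), a 2.59-fold lower signal, with a limma adjusted p of 0.0988. It ranged from -1.64 to -1.08 when single arrays were left out.

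Mir199a2 and Mir214 are neighbours on the same strand and are known from mesenchymal tissues such as the developing skeleton, where they are cut from a shared transcript. Mir199a2 gave 7.30, 7.85 and 7.98 in control and 7.05, 7.02 and 6.22 in induced cells, a difference of -0.95 (SE 0.28, adjusted p = 0.17). Its groups did not overlap. Mir214 gave 7.28, 7.99 and 7.90 in control and 7.47, 6.98 and 7.09 in induced cells. Its difference was -0.54 (SE 0.23, adjusted p = 0.29), and induced array 1 lay above control array 1. Both genes lay above the median level of all genes (6.46).

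The neighbours Mir145 and Mir143 give microRNAs that are abundant in smooth muscle, and miR-143 has been reported to promote fat cell formation. Mir145 gave 4.80, 5.55 and 6.19 in control and 5.04, 5.12 and 4.22 in induced cells, a difference of -0.72 (SE 0.39, adjusted p = 0.405). Mir143 gave 7.16, 7.45 and 8.04 in control and 7.41, 7.30 and 6.44 in induced cells, a difference of -0.50 (SE 0.33, adjusted p = 0.484). In both, control array 3 was the highest value and induced array 3 the lowest, and the other values overlapped. Without induced array 3 the differences were -0.43 for Mir145 and -0.20 for Mir143. Without control array 3 they were -0.38 and -0.26. Without both of these arrays the value for Mir143 was 0.05. The mural markers given above include the smooth muscle gene Myh11.

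The miR-23, miR-27 and miR-24 genes occur as paired clusters, and only the b cluster differed by 0.4 or more. miR-27 is known to restrain fat cell formation and targets the adipogenic receptor Pparg. In the b cluster, Mir27b gave 5.01, 4.54 and 5.75 in control and 4.64, 4.57 and 4.01 in induced cells, a difference of -0.69 (SE 0.33, adjusted p = 0.336). Mir24-1 gave 5.44, 5.26 and 5.91 against 5.09, 4.98 and 5.03, with no overlap and a difference of -0.51 (SE 0.18, adjusted p = 0.227). Mir23b gave 6.97, 6.96 and 7.73 against 6.87, 6.79 and 6.79, again without overlap, and differed by -0.41 (SE 0.22, adjusted p = 0.396). Control array 3 was the highest value of each gene, and without it Mir27b differed by -0.37 and Mir24-1 by -0.32. The a cluster held values near 0. Mir27a differed by 0.08 (SE 0.18), Mir24-2 by -0.07 (SE 0.15) and Mir23a by -0.09 (SE 0.16). The mature strands of the clusters are nearly the same. Counted from the 5′ end, miR-27b-3p differs from miR-27a-3p by C19U and miR-23b-3p from miR-23a-3p by U19A, and miR-24-3p is the same strand from both. The difference between the clusters was not tested.

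Other low estimates came from genes of several families. Mir98, a member of the let-7 seed family, is described with that family below. Mir338, which lies in the kinase gene Aatk, gave 5.94, 7.15 and 7.22 in control and 6.37, 6.05 and 5.94 in induced cells, with overlap and a difference of -0.65 (SE 0.35, adjusted p = 0.396), which was -0.43 without control array 3 and -1.07 without control array 1. Mir7-1, whose strand miR-7a is best known from neurons and endocrine cells, gave 6.06, 5.87 and 5.50 against 4.99, 5.43 and 5.33. Its groups were apart, by -0.56 (SE 0.19, adjusted p = 0.21). Mir351 gave 6.36, 6.71 and 7.23 against 6.09, 6.13 and 6.41, a difference of -0.56 (SE 0.23, adjusted p = 0.281) that was -0.33 without control array 3, and its X-linked neighbour Mir322 differed by -0.37 (SE 0.15). Mir362 had the tightest values of this group, with 5.54, 5.33 and 5.52 in control and 5.00, 4.96 and 5.07 in induced cells. Its difference was -0.45 (SE 0.11, adjusted p = 0.122).

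**Figure D2:**
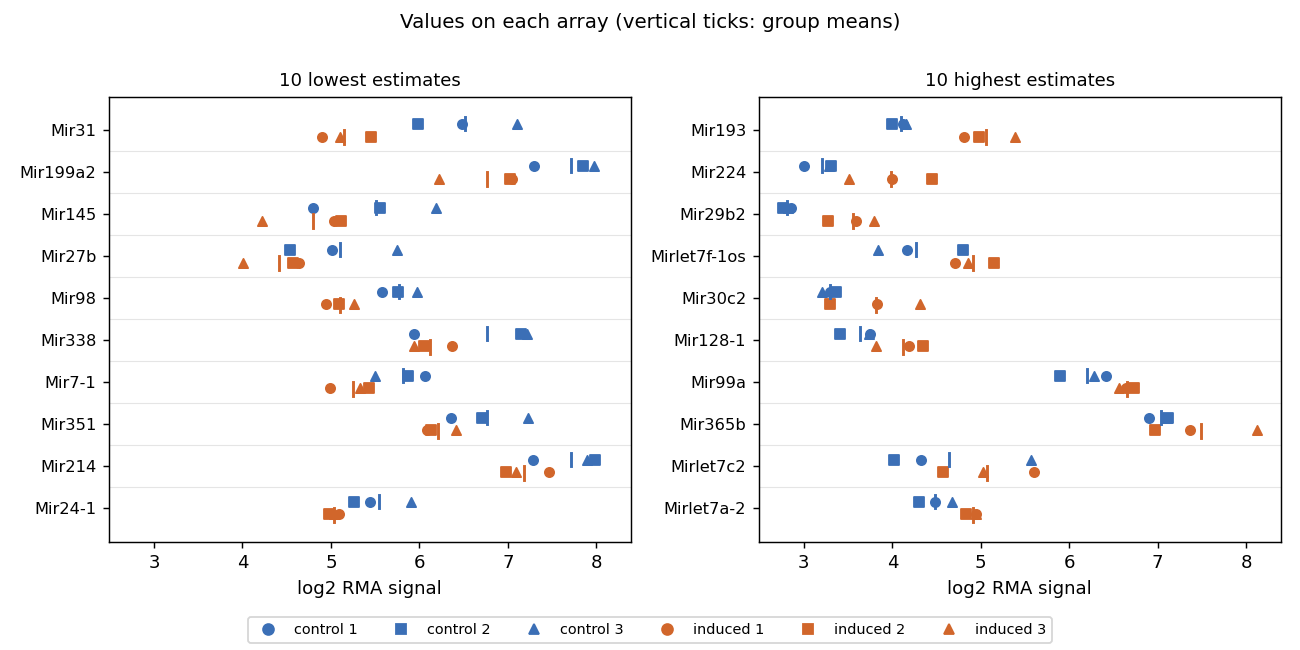
Log2 RMA signal on each array (circles, squares and triangles for replicates 1, 2 and 3; blue control, orange induced; vertical ticks are group means) for the microRNA genes with the 10 lowest and the 10 highest estimates. Mir31, Mir199a2, Mir98, Mir7-1 and Mir24-1 on the left and Mir193, Mir224, Mir29b2, Mir128-1, Mir99a and Mirlet7a-2 on the right have groups that do not overlap.

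Mir193 had the highest estimate. It gives miR-193a and lies beside Mir365b, and the related pair of miR-193b and miR-365 is known from brown fat. The control arrays gave 4.12, 4.0 and 4.16 and the induced arrays 4.81, 4.98 and 5.39. The control values lay close together and well below all induced values. The difference was 0.96 (SE 0.17, adjusted p = 0.067). It was 0.80 without induced array 3, with an adjusted p of 0.0247, and the adjusted p ranged from 0.0157 to 0.222 over the alternatives that kept the gene. Mir365b gave 6.90, 7.12 and 7.11 in control and 7.37, 6.97 and 8.12 in induced cells. Its difference of 0.44 (SE 0.28, adjusted p = 0.477) was 0.13 without induced array 3, which holds the highest value.

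The arrays also carried a feature for the opposite strand of the Mir193 locus. The hairpin of Mir193 (86 bases) lies wholly within the reverse complement of the hairpin named Mir193a (112 bases), whose mature strand is named miR-3549 and not miR-193a. Mir193a gave 5.09, 4.82 and 5.03 in control and 5.05, 5.03 and 5.16 in induced cells. Its groups overlapped, with a difference of 0.10 (SE 0.12, adjusted p = 0.716), whereas Mir193 differed by 0.96. The difference between the strands was not tested.

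Mir224 lies in an intron of Gabre, a GABA receptor subunit gene, and its strand has been reported to restrain fat cell formation. The control arrays gave 3.00, 3.31 and 3.28 and the induced arrays 4.0, 4.45 and 3.51. The groups did not overlap, and the difference was 0.79 (SE 0.24, adjusted p = 0.181), at a dim level (mean 3.59 over the 6 arrays). Without induced array 3, the lowest of the induced values, it was 1.03 with an adjusted p of 0.0363. Gabre gave 5.34, 5.19 and 5.40 in control and 6.78, 5.96 and 5.76 in induced cells. It too had no overlap, with a difference of 0.86 (SE 0.26, adjusted p = 0.182).

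The miR-29 genes form a pair of clusters that give strands with the same seed, known for lowering collagens and other matrix proteins. Mir29b2 gave 2.85, 2.76 and 2.82 in control and 3.59, 3.27 and 3.79 in induced cells. The groups were apart by 0.74 (SE 0.15, adjusted p = 0.093), at a level near the bottom of the range. Its neighbour Mir29c gave 4.11, 3.89 and 4.35 against 4.83, 4.19 and 4.22, a difference of 0.30 (SE 0.21, adjusted p = 0.528). Mir29b1, which gives the same miR-29b-3p strand from the other cluster, differed by -0.02 (SE 0.12). Its neighbour Mir29a gave 6.18, 6.64 and 5.47 in control and 6.50, 6.28 and 4.43 in induced cells, and its difference of -0.36 (SE 0.58) was smaller than its SE. Mature miR-29c-3p differs from miR-29a-3p by C10U.

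The let-7 family holds the largest seed group, and let-7 is known for lowering growth genes such as Hmga2 and has been reported to restrain fat cell formation. Its list holds 12 measured genes, and 11 of these give a strand with the let-7 seed. Of the 12, 8 had estimates above 0 and 4 below, with a median of 0.21 against -0.01 for all genes. At an unadjusted p under 0.05, 2 were higher and 1 lower (8.13% and 9.51% of all genes), and 0 passed the adjusted test. Mirlet7f-1os gave 4.17, 4.80 and 3.84 in control and 4.71, 5.15 and 4.86 in induced cells, a difference of 0.64 (SE 0.26, adjusted p = 0.274) with overlap, or 0.42 without control array 3. Despite its suffix for opposite strand, this gene gives let-7f-5p. The gene named Mirlet7f-1 gives miR-3596d and differed by 0.08 (SE 0.18). Mirlet7f-1os lies between Mirlet7a1, at 0.42 (SE 0.18), and Mirlet7d, at 0.27 (SE 0.20), so all members of this cluster had estimates above 0.

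Mirlet7a-2 was the let-7 gene with higher, separate groups. It gave 4.48, 4.30 and 4.67 in control and 4.95, 4.83 and 4.95 in induced cells, a difference of 0.43 (SE 0.13, adjusted p = 0.174). Mirlet7c2 had the same estimate with far more spread, since control array 3 at 5.57 stood above the other control arrays at 4.32 and 4.02. Its difference was 0.43 (SE 0.45, adjusted p = 0.683), and 0.90 without that array, 0.12 without control array 2 and 0.16 without induced array 1. Mirlet7c1, which gives the same let-7c-5p strand, differed by -0.41 (SE 0.28). Mir98 lay on the other side of 0 from most of its seed group. It gave 5.58, 5.76 and 5.97 in control and 4.94, 5.09 and 5.26 in induced cells, with no overlap and a difference of -0.67 (SE 0.15, adjusted p = 0.101). Its neighbour Mirlet7f2, at the bottom of the signal range, differed by -0.05 (SE 0.16).

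**Figure D3:**
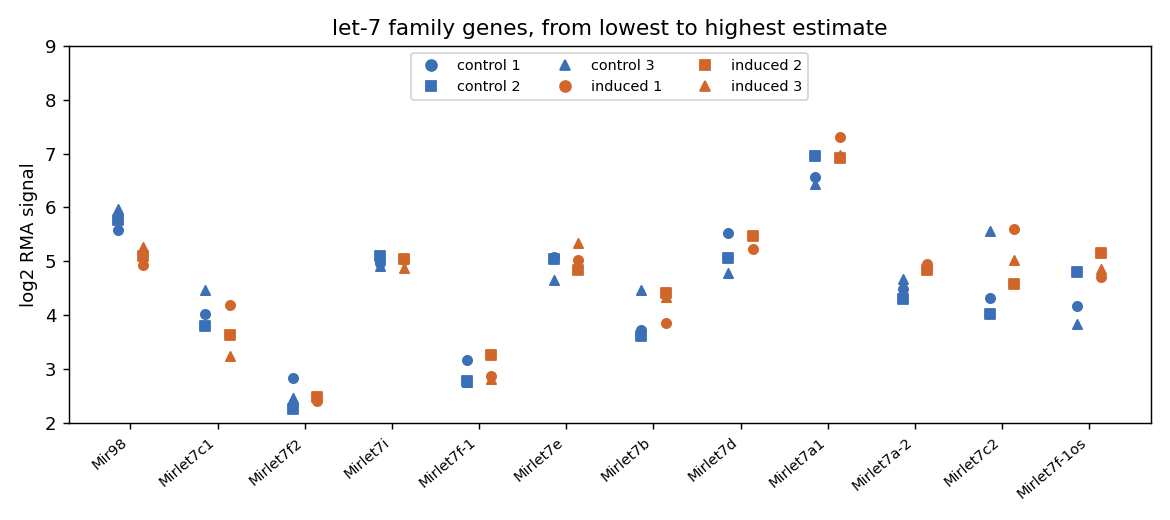
Log2 RMA signal on each array (symbols as replicates 1 to 3; blue control, orange induced) for the 12 let-7 family genes, ordered from the lowest to the highest estimate. Mir98 on the left has all induced values below all control values, and Mirlet7a-2 has all of them above.

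The genes of the miR-17-92 cluster and of its related clusters around Mir106a and Mir106b are known as targets of Myc that favour proliferation, and miR-17-92 has been reported to promote fat cell formation. The list of these clusters held 15 measured genes, among them Mir92b at -0.05 (SE 0.14), which lay in none of the clusters. Of the 15 genes 12 had estimates above 0, with a median of 0.11. At an unadjusted p under 0.05, 1 was higher (8.13% of all genes). That gene, Mir25, gave 5.92, 5.82 and 5.93 in control and 6.50, 6.10 and 6.32 in induced cells. Its groups were apart, by 0.42 (SE 0.13, adjusted p = 0.189). Its neighbours Mir93 and Mir106b differed by 0.13 (SE 0.17) and 0.00 (SE 0.11). These 3 genes lie in Mcm7, a DNA replication gene, which gave 8.82, 8.80 and 8.06 in control and 8.26, 8.62 and 7.42 in induced cells, a difference of -0.46 (SE 0.35, adjusted p = 0.557). Of the largest cluster, Mir17 differed by -0.20 (SE 0.17) and Mir19b1 by 0.27 (SE 0.34), the latter through induced array 2 at 4.23. Mir106a differed by 0.20 (SE 0.16). The pair Mir301b and Mir130b, whose strands share a seed, differed by 0.42 (SE 0.17) and 0.29 (SE 0.18), and Mir301b had higher, separate groups.

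Positions in the RefSeq table were used to ask how neighbouring microRNA genes moved. Of 205 genes with a position, 110 lay in 39 clusters on 1 strand with gaps of at most 20 kb, a distance chosen with the data in view. In 20 clusters all estimates had 1 sign. The pairs Mir193 with Mir365b and Mir199a2 with Mir214 were among these, with estimates of 0.96 and 0.44 and of -0.95 and -0.54. Other neighbours lay on opposite sides of 0. Mir99a gave 6.42, 5.90 and 6.28 in control and 6.64, 6.73 and 6.56 in induced cells, with separate groups and a difference of 0.45 (SE 0.16, adjusted p = 0.23) that was 0.29 without control array 2, beside Mirlet7c1 at -0.41. Mir30c2 gave 3.30, 3.36 and 3.21 against 3.83, 3.30 and 4.31, a difference of 0.53 (SE 0.25, adjusted p = 0.333), beside Mir30a at -0.31 (SE 0.14). The Mir30c2 estimate was 0.28 without induced array 3, its highest value. Mir222 and Mir221, which lower the cell cycle inhibitor p27, differed by 0.22 (SE 0.16) and -0.47 (SE 0.24).

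**Figure D4:**
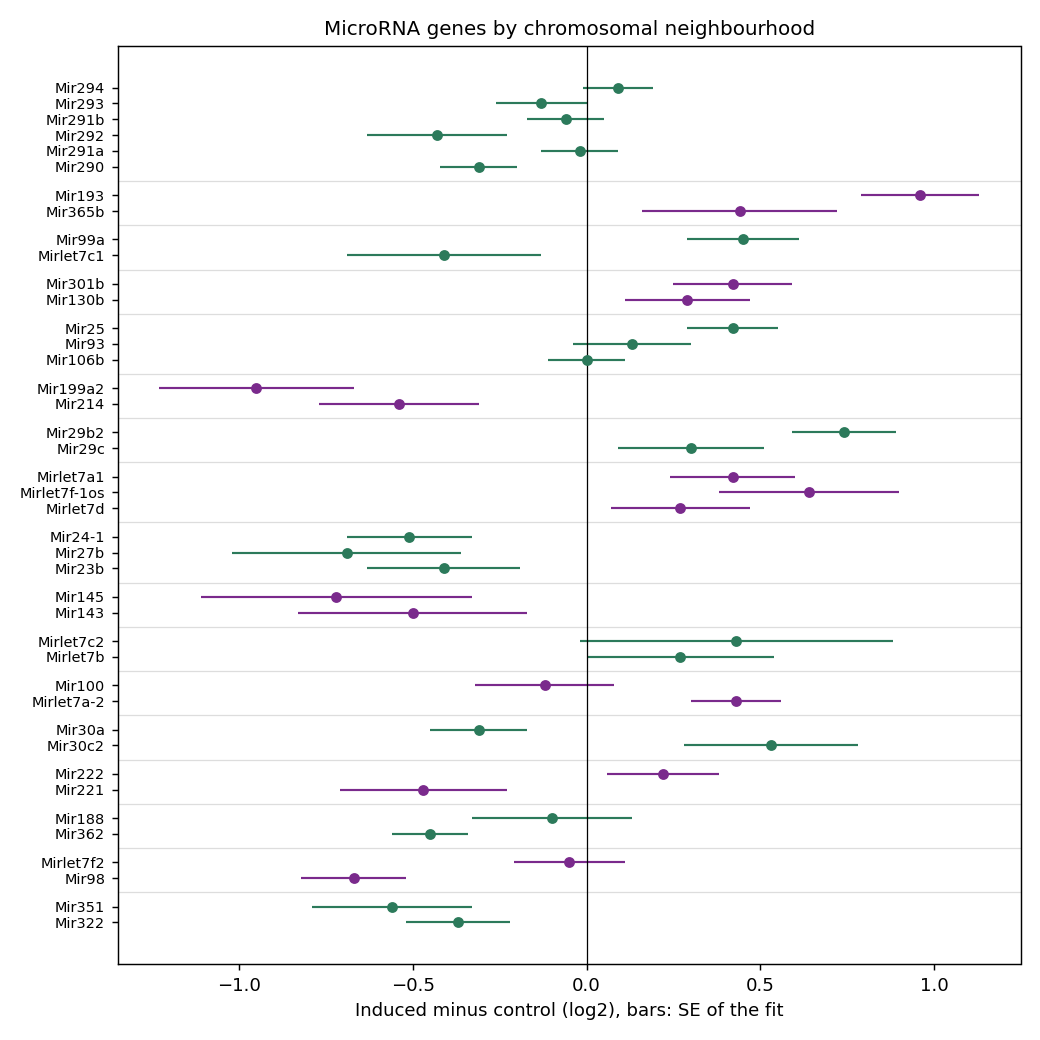
Induced minus control (log2, horizontal axis) with the SE of the fit as bars for microRNA genes grouped by chromosomal neighbourhood (alternating colours), for clusters with at least 1 estimate of 0.4 or more in size. All estimates are below 0 for Mir24-1, Mir27b and Mir23b and above 0 for Mirlet7a1, Mirlet7f-1os and Mirlet7d, while Mir99a and Mirlet7c1 lie on opposite sides.

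Some mature strands are made by more than 1 gene. There were 17 sets of genes, with 33 members, that give the same mature strand, and in 7 sets the estimates were 0.4 or more apart. The widest was let-7c, with -0.41 for Mirlet7c1 and 0.43 for Mirlet7c2. miR-7a followed, with -0.56 for Mir7-1 and 0.22 (SE 0.14) for Mir8, a symbol that RefSeq gives to another miR-7a gene. miR-29b-3p spanned 0.75 between Mir29b1 and Mir29b2, and miR-30c spanned 0.73 between Mir30c1 at -0.21 (SE 0.23) and Mir30c2. The level of the shared strand itself cannot be read from these features.

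MicroRNA genes with reported roles in fat cell formation had estimates on both sides of 0. Among 26 genes reported to promote it, 15 had estimates above 0 and 11 below, with a median of 0.05. At an unadjusted p under 0.05, 0 were higher and 1 was lower (8.13% and 9.51% of all genes). The largest differences in this list were those of Mir30c2 and Mir24-1, at 0.53 and -0.51, and of Mir143 and Mir26b. Mir26b, known from glucose and fat metabolism, gave 3.37, 4.04 and 3.91 in control and 3.00, 3.25 and 3.66 in induced cells, a difference of -0.47 (SE 0.24, adjusted p = 0.374). Among 25 genes reported to restrain fat cell formation, 13 were above 0 and 12 below, with a median of 0.00. Their largest differences were those of Mir31 at -1.37, Mir224 at 0.79, Mir145 at -0.72 and Mir27b at -0.69. In this list 1 gene was higher and 1 lower at an unadjusted p under 0.05 (8.13% and 9.51% of all genes). From either list 0 genes passed the adjusted test, against 0.749% of all genes. The let-7 and miR-17-92 genes, with the reported roles given above, were counted in their own lists and in neither of these. Mir93 and Mir363, from the clusters related to miR-17-92, were in the list of genes reported to restrain fat cell formation.

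The list of 23 stromal and fibroblast microRNA genes, which includes the miR-29, miR-199a and miR-143 families, had a median of -0.02, with 3 genes higher and 3 lower at an unadjusted p under 0.05 (8.13% and 9.51% of all genes). Mir10a, from a Hox cluster, was among the higher ones, with 2.56, 2.51 and 2.76 in control and 3.13, 2.93 and 2.97 in induced cells. Its groups were apart by 0.40 (SE 0.12, adjusted p = 0.172) at a dim level. The list of 12 brown fat genes had a median of 0.13, and Mir193, Mir365b, Mir30c2 and Mir182 had the largest differences. This list counts Mir193a by its symbol, although that gene gives miR-3549 from the opposite strand. Mir182 differed by 0.28 (SE 0.22). The stromal marker genes themselves had lower means on the induced arrays, as given above, though 0 of the 4 measured passed the test.

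The imprinted Dlk1-Dio3 region holds the longest row of microRNA genes, and its neighbour Dlk1 is a known brake on fat cell formation. Of the 20 measured genes listed for it 9 had estimates above 0 and 11 below, with a median of -0.02. Most were dim, with a median level of 3.10. Mir345 was the brightest of the list, with 7.37, 7.49 and 7.84 in control and 7.95, 8.07 and 7.86 in induced cells. Its groups were apart by a narrow margin, with a difference of 0.39 (SE 0.15, adjusted p = 0.257). By position Mir345 fell in no cluster with the other listed genes and lay in a long noncoding RNA gene without them. Whether it is part of the imprinted row was not tested. Mir329 differed by -0.38 (SE 0.24), Mir154 by -0.27 (SE 0.13) with lower, separate groups, and Mir377 by -0.24 (SE 0.25).

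MicroRNA genes of other tissues served as a comparison. The 5 muscle genes had levels of 2.46 to 4.28 and differences between -0.14 and 0.16, with Mir133a1 at 0.16 (SE 0.15), Mir133b at 0.14 (SE 0.16), Mir208b at -0.14 (SE 0.14) and Mir206 at 0.07 (SE 0.10). The 5 blood cell genes had levels of 2.55 to 5.06, with Mir150 at -0.33 (SE 0.25), Mir223 at 0.28 (SE 0.17), Mir144 at 0.12 (SE 0.14) and Mir146a at 0.10 (SE 0.12). None of these 10 genes had an unadjusted p under 0.05, where 17.6% of all genes did. Of 16 neural genes, Mir128-1 alone had such a p. It gave 3.75, 3.41 and 3.74 in control and 4.19, 4.35 and 3.81 in induced cells, a difference of 0.48 (SE 0.18, adjusted p = 0.241). The neural list also held Mir9-1 at 0.38 (SE 0.24), Mir132 at -0.34 (SE 0.17) and Mir9 at -0.38 (SE 0.21). RefSeq gives the symbol Mir9 to the gene of miR-7b, which shares its seed with miR-7a, so Mir9 does not belong with the miR-9 genes.

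The 14 epithelial and liver genes had a median of 0.04, with Mir182 at 0.28, Mir122, the main liver microRNA, at 0.25 (SE 0.25), Mir194-1 at -0.21 (SE 0.13) and Mir200b at 0.10 (SE 0.31). Of the 6 genes of the pluripotent cell cluster, 5 had estimates below 0. Mir290 gave 5.55, 5.55 and 5.73 in control and 5.29, 5.22 and 5.41 in induced cells, a difference of -0.31 (SE 0.11, adjusted p = 0.238). It was the single gene of this list at an unadjusted p under 0.05, where 17.6% of all genes were. Mir292 differed by -0.43 (SE 0.20), Mir293 by -0.13 (SE 0.13) and Mir294 by 0.09 (SE 0.10). In the list linked to p53, Mir34a had higher, separate groups, with 3.71, 3.77 and 3.79 in control and 4.02, 3.90 and 4.43 in induced cells. It differed by 0.36 (SE 0.16, adjusted p = 0.3), beside Mir34b at 0.09 (SE 0.12), Mir194-1 at -0.21 and Mir215 at 0.04 (SE 0.15).

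The 10 brightest microRNA genes had small or unsettled differences. Mir21, abundant in stromal and many other cells, gave 8.75, 9.15 and 8.66 in control and 9.64, 9.32 and 7.85 in induced cells. The induced values spanned the control ones on both sides, and the difference was 0.08 (SE 0.45). It was 0.62 without induced array 3, -0.27 without induced array 1, -0.11 without induced array 2 and -0.02 without control array 3. Mir185 differed by -0.06 (SE 0.11), Mir22 by -0.12 (SE 0.19), Mir181d by -0.14 (SE 0.14), Mir181c by -0.04 (SE 0.15), Mir139 by 0.06 (SE 0.27) and Mir328 by -0.22 (SE 0.33). Mir207 gave 7.73, 7.38 and 7.71 in control and 7.87, 7.80 and 7.90 in induced cells, with separate groups and a difference of 0.25 (SE 0.13, adjusted p = 0.385). Mir196c, from a Hox cluster, differed by 0.40 (SE 0.16, adjusted p = 0.278) with overlap. Mir345, described above, differed by 0.39 (SE 0.15, adjusted p = 0.257) with separate groups. Of the 10 brightest, Mir196c and Mir345 had an unadjusted p under 0.05, where 17.6% of all genes did. Levels of different features are not comparable as amounts. Over the 194 genes with a hairpin sequence, the GC content of the hairpin and the mean signal had a Spearman rho of 0.56, a description over genes that share the same 6 arrays.

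The genes that hold microRNA genes were read from the same fit. By position, 109 of the microRNA genes lay inside another gene on the same strand, 53 of them inside long noncoding RNA genes only. For 53 pairs both genes were measured, with 42 different host genes. The estimates had the same sign in 30 of the 53 pairs, and the Spearman rho over pairs was 0.19, where several microRNA genes share a host. By limma's test 0 of the 42 hosts passed the adjusted threshold, against 0.749% of all genes, and 10 had an unadjusted p under 0.05, where 17.6% of all genes did. Groups were separate for 15 of the 42 hosts and for 12.6% of the 214 microRNA genes, against 25.4% of all genes. Both genes had separate groups in the same direction in 2 pairs, Mir224 with Gabre and Mir362 with Clcn5, a chloride and proton exchanger gene. Clcn5 gave 9.49, 9.40 and 8.97 in control and 8.75, 8.53 and 8.37 in induced cells, a difference of -0.74 (SE 0.18, adjusted p = 0.119). Both had separate groups in opposite directions in 2 other pairs. Mir128-1 lies in R3hdm1, which gave 10.01, 10.11 and 10.26 against 9.94, 9.77 and 9.35, a difference of -0.44 (SE 0.17, adjusted p = 0.269). Mir193 lies inside Faul2 in the RefSeq table, which gave 11.67, 11.55 and 11.49 against 11.31, 11.48 and 11.28. The groups of Faul2 were apart by a narrow margin, with a difference of -0.21 (SE 0.11, adjusted p = 0.39).

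Several hosts differed more than the microRNA gene they hold. Pank1 encodes a kinase for the first step from pantothenate to coenzyme A. It gave 7.12, 6.62 and 6.45 in control and 7.55, 7.44 and 9.56 in induced cells, a difference of 1.46 (SE 0.56, adjusted p = 0.259). In Pank1 induced array 3 stood far above the others, while Mir107 inside it gave 0.06 (SE 0.10). Copz2, a vesicle coat subunit, gave 10.47, 10.54 and 10.81 against 9.76, 9.73 and 9.17, a difference of -1.05 (SE 0.19, adjusted p = 0.0763), while Mir152 gave 0.13 (SE 0.12). Copz2 passed the adjusted threshold without induced array 3, at -0.86 and an adjusted p of 0.031. Pde2a, a cyclic nucleotide phosphodiesterase, gave 8.60, 9.29 and 8.41 against 7.88, 8.32 and 6.12. It differed by -1.33 (SE 0.57, adjusted p = 0.295), or -0.67 without induced array 3, and Mir139 by 0.06. Ctdspl differed by 1.02 (SE 0.51, adjusted p = 0.368) and Mir26a by 0.13 (SE 0.17), and in Ctdspl induced array 3 at 10.00 stood above the other induced arrays at 8.11 and 8.18. Tango2 differed by 0.48 (SE 0.16, adjusted p = 0.205) and Mir185 by -0.06.

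In the pairs of Mir98, Mir338 and Mir26b the microRNA gene had the larger estimate. Huwe1, a ubiquitin ligase gene that holds Mir98, gave 10.23, 10.09 and 10.31 in control and 10.28, 10.10 and 10.16 in induced cells, a difference of -0.03 (SE 0.11). Aatk, the host of Mir338, differed by -0.17 (SE 0.11), and Ctdsp1, the host of Mir26b, by -0.06 (SE 0.10). Aopep, an aminopeptidase gene that holds the b cluster of miR-23, miR-27 and miR-24, differed by -0.37 (SE 0.22, adjusted p = 0.437), the same direction as its 3 microRNA genes. The heart myosin gene Myh7, host of Mir208b, differed by -0.32 (SE 0.14, adjusted p = 0.287), more than Mir208b at -0.14. Differences between hosts and their microRNA genes were not tested.

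**Figure D5:**
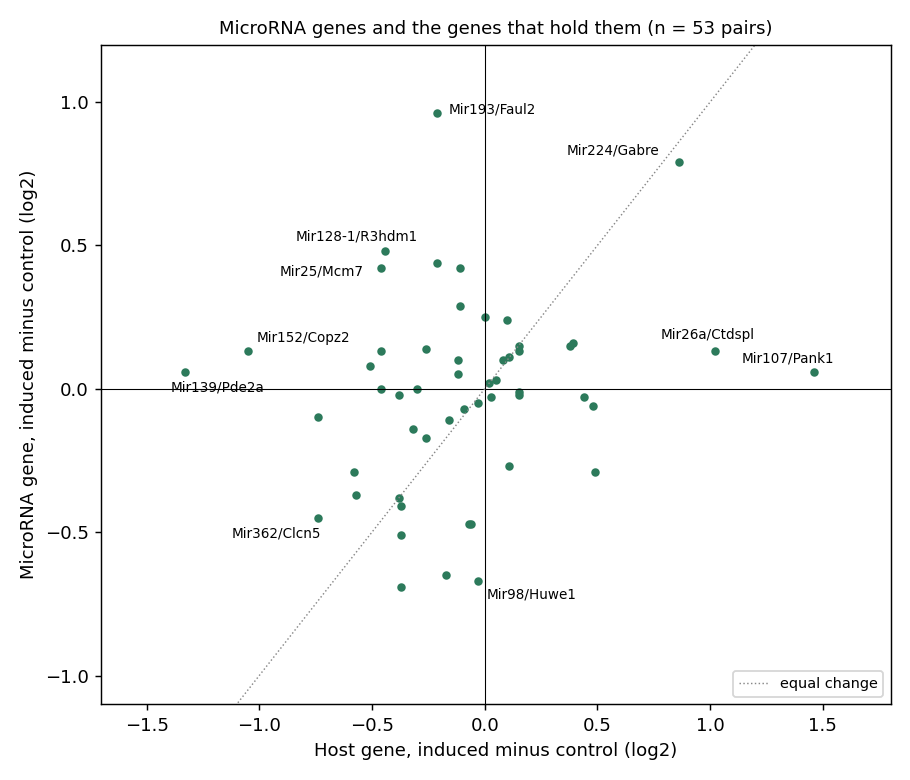
Induced minus control (log2) of the host gene (horizontal axis) and of the microRNA gene inside it (vertical axis) for 53 pairs; the dotted line marks equal change. Mir224 with Gabre lies near the dotted line at 0.79 and 0.86, Mir107 with Pank1 lies far right at 0.06 and 1.46, and Mir193 lies at 0.96 above a host at -0.21.

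The machinery that makes and uses microRNAs was also measured. Of 42 listed genes 38 were on the arrays, 0 passed the adjusted test, and the median difference was -0.05. At an unadjusted p under 0.05, 1 was higher and 5 were lower, where 8.13% and 9.51% of all genes were. The enzymes that cut the hairpin had small estimates, with Drosha at -0.30 (SE 0.17), Dgcr8, its partner, at 0.22 (SE 0.26) and Dicer1 at 0.01 (SE 0.12). Zc3h12a, a ribonuclease that can cut microRNA precursors and inflammatory messenger RNAs, gave 9.04, 8.50 and 8.93 in control and 8.31, 8.14 and 7.40 in induced cells, with no overlap and a difference of -0.88 (SE 0.27, adjusted p = 0.181). Mov10, a helicase that works with Argonaute, gave 7.19, 7.41 and 7.03 against 6.49, 6.49 and 6.60, also with no overlap, and differed by -0.68 (SE 0.13, adjusted p = 0.0815). Hnrnpa1, which binds some microRNA hairpins, differed by -0.62 (SE 0.26, adjusted p = 0.291), or -0.33 without induced array 3. Adarb1, an RNA editing enzyme, gave 7.08, 7.78 and 7.51 against 8.21, 7.92 and 7.89, a difference of 0.55 (SE 0.20, adjusted p = 0.236).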

How the data were processed

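The deposited values are log2 signals that the authors made with RMA, per the submitters' processing notes, a method that corrects background, equalises the arrays' distributions and summarises probes. Its version is not stated in these sources, and the log2 scale was read from the values. Per the labels' protocols, the arrays were hybridised with biotinylated cRNA from 6 µg of RNA. Of 36685 features, 18511 had 1 symbol in the platform annotation, 575 several and 17599 none. The feature with the highest mean was kept for each symbol, giving 18166 genes. The groups of arrays were fitted with limma 3.58.1 (R 4.3.3; lmFit, then eBayes, two-sided, group as the only term), with 4 residual and 2.65 prior degrees of freedom and Benjamini-Hochberg adjustment over all genes. The fit was tested on simulated data with changes larger than any measured for a microRNA gene. That run therefore does not show how well differences of the sizes reported here are found. The precision is limited by the number of arrays. GRCr8 tables gave names, sequences, neighbours and hosts, with no coordinates printed because no source used here gives the array's build; 203 members matched a mature sequence and 194 a hairpin.

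Members and lists were chosen with earlier results of these data known. Genes named by rule were the 10 highest and 10 lowest estimates, the 10 highest levels, the 4 largest differences in each list and among processing genes, every called gene, and listed hosts of named genes. Other genes, such as cluster neighbours, family members and hosts outside that list, were named after their values were seen. 7 features with several symbols were left out. Alternatives were a replicate block, robust eBayes with a trend, array weights, all features, a level filter, centred arrays, the lowest-mean feature per symbol, and arrays left out.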

Additional observations from a re-analysis of the deposited data

How the results depend on the processing

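The count of microRNA genes passing an adjusted p of 0.05 was 0 in the main comparison and 5 with array weights (Mir193, Mir98, Mir29b2, Mir224 and Mir128-1, adjusted p of 0.0157 to 0.0487, while 5.11% of all genes passed). It was 2 without both replicate 3 arrays (Mir193 and Mir224, beside 4.07% of all genes) and 0 to 2 when single arrays were left out (beside 0.011% to 3.07% of all genes). The 12 genes higher at an unadjusted p under 0.05 became 19 without both replicate 3 arrays and 5 to 15 without single arrays, and the 10 lower became 17 with array weights and 6 to 13 without single arrays. In either direction, such a p was found for 14% of the microRNA genes and 16.6% of all genes without both replicate 3 arrays. The shares were 15.9% and 22.4% with array weights, and 6.07% to 12.6% and 11.7% to 17.8% without single arrays. With genes above the median level only, which left 30 microRNA genes, 1 was higher and 1 lower (6.67% of these in either direction, against 24.3% of all genes kept). Centring the arrays gave 14 higher and 7 lower (9.81% in either direction, against 17.2% of all genes). The median difference stayed between -0.04 and 0.05 in all alternatives. Hosts passing the adjusted threshold were 1 with array weights, 2 without both replicate 3 arrays and 0 to 1 without single arrays. Processing genes passing were 1 with array weights and 1 without both replicate 3 arrays (Mov10), and 0 when single arrays were left out.

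With a replicate block, 11 microRNA genes were higher and 9 lower at an unadjusted p under 0.05 (9.35%, against 16.4% of all genes). The adjusted threshold was passed by 0 microRNA genes, and by 12 genes of all instead of 136. Deviations from group means of same-numbered arrays correlated at 0.023, 0.12 and 0.154 over all genes, and control array 1 correlated best with induced array 2 (0.043), so the numbers were not taken to pair the cultures.

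Some estimates changed sign. With array weights, Huwe1 was at 0.01 and Mir181c at 0.07. Without both replicate 3 arrays, Huwe1 was at 0.03, Mir143 at 0.05 (from -0.50), Mir181c at 0.09, Mir185 at 0.06, Mir22 at 0.06 and Mir377 at 0.10. When single arrays were left out, the estimates that changed sign ranged from -0.01 to 0.25 for Mir133b, -0.15 to 0.33 for Mir139, -0.55 to 0.14 for Mir328, -0.09 to 0.02 for Huwe1, -0.10 to 0.01 for Mir185, -0.17 to 0.41 for Mir200b, -0.27 to 0.62 for Mir21, -0.22 to 0.09 for Mir22, -0.46 to 0.03 for Mir377, -0.11 to 0.13 for Mir215, -0.09 to 0.59 for Mir19b1 and -0.17 to 0.10 for Mir181c. The cause of these shifts was not tested.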
